A study of Mus musculus with 4 samples.

Results

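The 35 genes described here carry the machinery that couples the electrical excitation of skeletal muscle to contraction, together with the muscle forms of enzymes that supply its energy. They were listed by known function (triad, calcium handling, membrane excitability and muscle-type energy enzymes), and all 35 were found among the 20065 genes of the deposited RNA-seq table. The cells were cultured satellite cells, the stem cells of skeletal muscle (MuSC), from limb and trunk muscles of adult mice on a C57BL/6 background. The 2 Prmt5sKO libraries came from Pax7CreERT2/Prmt5loxP/loxP mice and the 2 control libraries from Pax7CreERT2/Prmt5+/loxP mice, with tamoxifen (TAM) named for both groups. The controls are labelled wild type but also carry CreERT2 and 1 loxP allele of Prmt5, which encodes an arginine methyltransferase. CreERT2 is expressed from the Pax7 gene, so the deletion is aimed at MuSC and their progeny. For RNA-seq, MuSC of both groups had been treated in culture with 4-hydroxytamoxifen (4-OH), the active form of TAM. Nothing in the labels says whether the 2 libraries of a group came from separate mice or cultures, so a p-value measures only the spread between these libraries.

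In a muscle fibre the action potential travels along the surface membrane and into the T-tubules, where the L-type calcium channel (DHPR) senses the voltage and opens the ryanodine receptor of the sarcoplasmic reticulum. Calcium stored there by calsequestrin is released, and the SERCA pumps return it. T-tubule and reticulum meet at the triad, which junctophilins and triadin help to hold together. Energy for contraction is buffered by creatine kinase and supplied by glycogen breakdown and glycolysis, for which muscle uses forms of its own. These genes are characteristic of differentiated myocytes and fibres, and many of them are low in proliferating MuSC.

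The recovered counts per library came to 14436914 and 13240754 for control (deeper and shallower library) and to 20047430 and 16190414 for Prmt5sKO. The names deeper and shallower refer to these totals within a group, because the columns carry no replicate numbers. Strings of 4 values follow this order throughout, and values are counts normalized by the trimmed mean of M-values (TMM) unless another scale is named. The deleted gene, Prmt5, was at 2273, 2906, 244 and 202, so both libraries labelled Prmt5sKO were far below both controls. Across 11571 genes with at least 20 counts in each library, the SD of the log2 ratio between the 2 libraries of a group was 0.57 in control and 0.72 in Prmt5sKO. The 2 Prmt5sKO libraries differed widely in muscle genes, and the shallower one stands apart. Myogenin (Myog), a regulator of myoblast differentiation, had 1436, 1189, 3707 and 19508 normalized counts, and 8 differentiation markers together summed to 8737 and 5353 in the control and to 14020 and 192205 in the Prmt5sKO libraries. The 7 markers of satellite and myogenic cells summed to 48514 and 41580 in control and to 42529 and 72931 in Prmt5sKO. Des, Itga7, Cdh15, Vcam1 and Myod1 were highest in the shallower Prmt5sKO library, Des by most, at 14906, 12514, 14372 and 32171. Myod1 was so by least, at 15445, 12944, 12152.5 and 15548, and Vcam1 was at 1605, 1405, 1737 and 1883. Pax7 was at 3079, 3002, 3664 and 2569.6, and Myf5 was lower in both Prmt5sKO libraries, at 1630, 1772, 1305 and 1252. Fold changes without the shallower Prmt5sKO library are therefore given for the 33 genes that could be tested without it. In bulk RNA, fewer cells of a type and less RNA per cell cannot be told apart.

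Markers of other cells differed less than those of differentiation, with exceptions. The 5 markers of smooth muscle and pericytes summed to 11308 and 10169 in control and to 17701 and 45526 in Prmt5sKO. Of these 5, Acta2, Rgs5, Pdgfrb and Cspg4 were above both controls in both Prmt5sKO libraries, 3 of them at an unadjusted p under 0.05 and 0 called in limma-voom, while Myh11 stayed between 6.67 and 10.2. Acta2 had the largest part in the sums, at 8133, 8389, 12862 and 39358 normalized counts, and Rgs5 was at 1774, 128, 2367 and 4163. The 6 fibroblast markers summed to 13486 and 6050 in control and to 14149 and 16748 in Prmt5sKO, mostly through Col3a1. The 4 endothelial markers in the table lay between 56.3 and 163 in sum, the 2 blood markers between 58.5 and 112, the 4 Schwann cell markers between 28.2 and 52.0, and the 4 heart markers between 15.8 and 144. Of the adipocyte markers only Plin1 is in the table, at 0 in 3 libraries and at 4.45 in the deeper Prmt5sKO library. In the shallower Prmt5sKO library Cdh5, Sox10, S100b, Lum, Nppa and Plin1 were at 0, but they were low in the other libraries too, at most 27.2 (Lum, shallower control). Other markers of these lists were highest in the shallower Prmt5sKO library, among them Col1a1 at 328, Ly6a at 30.2 and Itgam at 22.1. The part of pericyte and fibroblast markers in the results was not tested. Xist, which is expressed from an inactive X chromosome, was at 8668 in the deeper control library and, among Prmt5sKO, 5655 in the shallower one, against 23.3 and 8.15 in the other two.

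Promoter sequences were compared because most of the genes below were high together in the same library. RefSeq start sites on GRCm38.p6 were matched for 23 of the 35 genes, with 29 promoters. Shown are the 250 bases before the start for the 4 genes with the largest log2 fold changes among those with a single start (Ckm, Smpx, Casq2 and Ckmt2) and for the pair that was lower in both Prmt5sKO libraries (Clcn1 and Phka1). They were chosen after the values were seen, run 5′ to 3′ on the strand of the gene, and end at the base before the start site. The positions are chr7:19410844-19411093, plus strand for Ckm, chrX:157698723-157698972, plus strand for Smpx, chr3:102086165-102086414, plus strand for Casq2, chr13:91876886-91877135, minus strand for Ckmt2, chr6:42286435-42286684, plus strand for Clcn1 and chrX:102644247-102644496, minus strand for Phka1. Capitals mark the E-box CANNTG, the type of site that MyoD and myogenin bind.
Ckm: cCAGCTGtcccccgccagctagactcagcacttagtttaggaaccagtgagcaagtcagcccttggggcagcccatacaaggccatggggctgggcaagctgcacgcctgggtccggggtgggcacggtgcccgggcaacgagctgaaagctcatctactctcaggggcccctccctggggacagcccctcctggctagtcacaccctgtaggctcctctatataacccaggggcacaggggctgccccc
Smpx: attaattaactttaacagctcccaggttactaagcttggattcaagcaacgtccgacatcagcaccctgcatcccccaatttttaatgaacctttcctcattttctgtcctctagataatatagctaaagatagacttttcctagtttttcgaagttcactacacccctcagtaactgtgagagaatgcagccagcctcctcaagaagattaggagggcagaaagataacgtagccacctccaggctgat
Casq2: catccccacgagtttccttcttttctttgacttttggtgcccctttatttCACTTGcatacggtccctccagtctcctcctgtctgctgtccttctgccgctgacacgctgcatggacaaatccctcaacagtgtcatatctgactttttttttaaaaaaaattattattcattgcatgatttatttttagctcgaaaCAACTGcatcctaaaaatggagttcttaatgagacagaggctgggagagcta
Ckmt2: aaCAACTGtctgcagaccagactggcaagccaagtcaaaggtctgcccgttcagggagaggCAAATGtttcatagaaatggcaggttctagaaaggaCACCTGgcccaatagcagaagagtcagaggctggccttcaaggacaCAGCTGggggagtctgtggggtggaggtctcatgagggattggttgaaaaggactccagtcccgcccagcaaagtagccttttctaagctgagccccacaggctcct
Clcn1: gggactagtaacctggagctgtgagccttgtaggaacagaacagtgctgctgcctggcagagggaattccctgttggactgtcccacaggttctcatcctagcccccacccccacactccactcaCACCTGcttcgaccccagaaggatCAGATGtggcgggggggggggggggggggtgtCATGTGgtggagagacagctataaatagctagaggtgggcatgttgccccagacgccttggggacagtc
Phka1: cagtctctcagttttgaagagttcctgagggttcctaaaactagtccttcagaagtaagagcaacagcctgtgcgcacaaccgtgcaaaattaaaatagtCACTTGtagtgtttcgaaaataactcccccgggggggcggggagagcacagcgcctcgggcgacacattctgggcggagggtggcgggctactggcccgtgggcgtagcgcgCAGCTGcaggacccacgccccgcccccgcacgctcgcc

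Searched on both strands of the 250 bases, CANNTG was present in 20 of the 29 promoters of these genes (69.0%) and in 66.2% of all 32851 promoters. The form CAGCTG, which is contained in CANNTG, was present in 14 of the 29 (48.3%) against 13.0% of all. By gene, 12 of 23 held CAGCTG (52.2%) against 14.7% of 27025 genes. These were Atp2a1, Cacna1s, Casq1, Cav3, Ckm, Ckmt2, Hrc, Jph2, Mb, Pgam2, Phka1 and Pygm, so that the letters stand before genes high in the shallower Prmt5sKO library as well as before Phka1, which was lower in both. The MEF2 motif was found before Casq2, Clcn1, Pgam2 and Pvalb, in 13.8% of the 29 promoters and 2.92% of all. CATTCC, the core of the MCAT motif, was in 2 of 29 promoters (6.90%) and in 12.6% of all, and the CArG box was in 0 of 29 and in 1.47% of all. The 250 bases before Smpx, which had one of the largest differences, hold no CANNTG, while those before Ckmt2 hold 4 and those before Clcn1 hold 3. A match of letters is a description and not a bound site.

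Most of the 35 genes were highest in the shallower Prmt5sKO library, and the deeper Prmt5sKO library lay nearer to the controls. Of the 34 genes tested in limma-voom, 32 had their highest value in the shallower Prmt5sKO library, against 27.6% of all 16212 genes tested. Both Prmt5sKO libraries were above both control libraries for 21 of the 34, against 25.2% of all genes, and below both for 2 of the 34, against 23.6%. The deeper Prmt5sKO library on its own was above both controls for 21 of the 34, where 38.9% of all genes were. The median log2 fold change of the 34 genes was 1.98, with a range from -1.14 to 4.35, and that of all genes tested was 0.02. The value of 4.35 was that of Sln, which had 0 counts in both controls, and the next largest was 3.97 for Ckm. Without the shallower Prmt5sKO library the median of 33 genes was 0.49, and without the deeper one the median of 34 was 3.20. Sln passed the filter on low counts only through its Prmt5sKO libraries, and with Sln at its lower bound the median stayed at 1.98. Pvalb, the parvalbumin of fast fibres, had 0, 1, 3 and 5 counts and was not tested.

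No gene passed the test. With all 4 libraries, limma-voom with Benjamini-Hochberg adjustment called 0 of the 34 genes and 0% of all genes tested, with an adjusted p up to 0.05 and a fold change of 2 or more as thresholds. The smallest adjusted p was 0.276 among the 34 genes and 0.193 over all genes, and limma-trend also called 0 genes. The value of 0.193 in limma-voom was that of Prmt5, the deleted gene, at a log2 fold change of -3.52. The test thus missed a gene known to differ, and a lack of calls does not show that genes were unchanged. With DESeq2 and the same thresholds for adjusted p and fold change, the authors reported genes that changed. The lack of calls therefore holds for the tests used here. At an unadjusted p under 0.05 in limma-voom, 4 of the 34 were higher in Prmt5sKO (Cacng1, Cacna2d1, Atp2a1 and Pygm), against 6.01% of all genes tested. At that threshold 0 of the 34 were lower, and 1126 of all 16212 genes tested were. With 2 libraries a group, the calls depended on which libraries were used. Without the deeper Prmt5sKO library 24 of the 34 were called, all of them higher, against 2.43% of all genes, and the single Prmt5sKO library was then assumed to vary like the controls. Without the shallower one 0 of 33 were called. With a replicate block in which deeper and shallower libraries of opposite groups were paired, limma-voom called 14 of the 34, all higher, against 1.17% of all genes, while pairing the deeper libraries in the block gave 0. The pairing with 14 calls joins the libraries with like levels of Xist. Within these pairs, the median log2 ratio of Prmt5sKO to control over the 34 genes, with 1 added to each normalized count, was 2.74 in the pair high in Xist and 0.92 in the pair low in Xist, beside 0 and 0.04 over all genes tested. In the first pair 32 of the 34 genes were higher in Prmt5sKO, beside 8087 of all 16212. In the second pair 25 of the 34 were, beside 8372 of all. With the deeper libraries paired, the median was 0.30 and 23 of the 34 were higher, beside 0.02 and 8277 over all genes. For the shallower libraries it was 3.48 with 32 of the 34 higher, beside 0.04 and 8344. Each pair is 1 library against 1, with no replicate check.

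**Figure D1:**
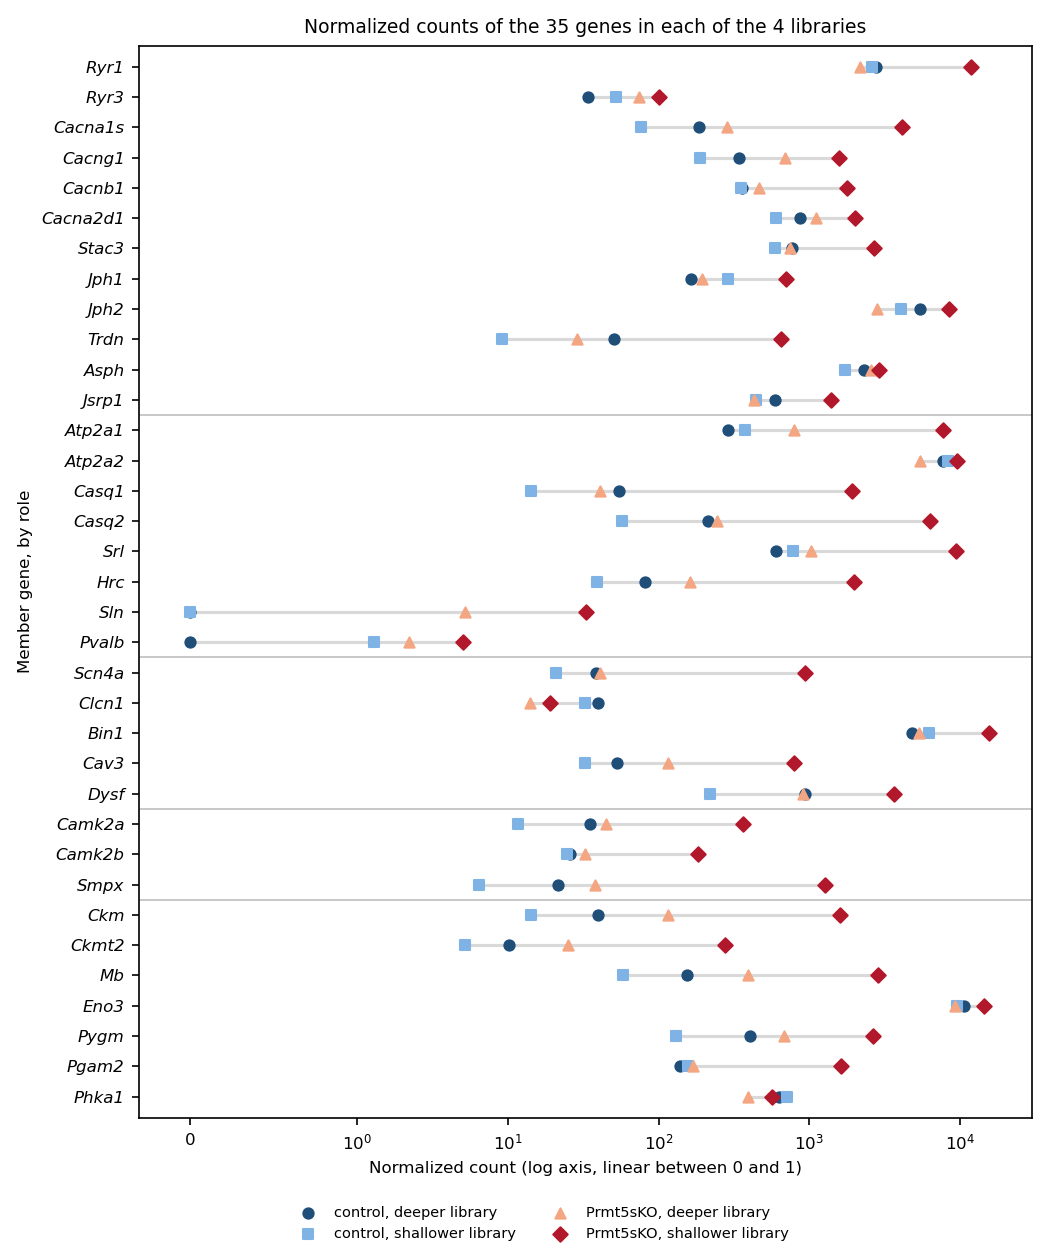
Normalized counts (horizontal axis, logarithmic above 1 and linear between 0 and 1) of the 35 genes in each library, with circles and squares for the control and triangles and diamonds for the Prmt5sKO libraries, and lines between the roles. The diamonds of the shallower Prmt5sKO library are the rightmost point in all rows but those of Clcn1 and Phka1, and the triangles of the deeper one often lie among the controls.

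For each of the 4 subunits of the voltage sensor both Prmt5sKO libraries exceeded both controls, by unequal amounts. Of all genes tested, 25.2% were higher in both Prmt5sKO libraries. Cacna1s (ENSMUSG00000026407, chromosome 1, 136052750 to 136119822, coordinates here and below on GRCm38), which encodes the pore-forming subunit that senses the voltage, had 185, 76.5, 282 and 4109 normalized counts. Both Prmt5sKO libraries were above both controls, but the shallower one was 14.6-fold above the deeper one. The log2 fold change was 3.1 (SE 1.77) with a 95% interval from -1.21 to 7.41, and 1.21 without the shallower Prmt5sKO library. Cacng1 (ENSMUSG00000020722, chromosome 11, 107703218 to 107716522), the gamma subunit of the muscle channel, had 341, 189, 691 and 1580.0 normalized counts and the smallest unadjusted p of the 34 genes. The groups did not overlap, and the log2 fold change was 2.0 (SE 0.54), with a 95% interval from 0.69 to 3.32 (unadjusted p = 0.0096 and adjusted p = 0.276 in limma-voom). Leaving out the shallower Prmt5sKO library gave 1.42, and leaving out the deeper one gave 2.61. Cacnb1, the beta subunit that brings the channel to the membrane, had 356, 350.2, 464 and 1770.0 normalized counts and a log2 fold change of 1.33 (SE 0.68), or 0.39 without the shallower Prmt5sKO library. Cacna2d1, the alpha2delta subunit, had 872, 597, 1112 and 2011, with a log2 fold change of 1.04 (SE 0.36), an unadjusted p of 0.0278 and an adjusted p of 0.333 in limma-voom, and 0.61 as log2 fold change without that library. Stac3, an adaptor that the skeletal voltage sensor needs, had 769.6, 594, 742 and 2670.1 normalized counts, and its deeper Prmt5sKO library lay between the controls. Stac3 had a log2 fold change of 1.05 (SE 0.61), or 0.13 without the shallower one.

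The release channel itself was not higher in both Prmt5sKO libraries. Ryr1 (ENSMUSG00000030592, chromosome 7, 29003344 to 29125179), the ryanodine receptor of skeletal muscle, had 2762, 2587, 2179 and 11754 normalized counts, so the deeper Prmt5sKO library was the lowest of the 4 and the shallower one the highest. Its log2 fold change was 0.93 (SE 0.72) and turned to -0.30 without the shallower Prmt5sKO library. Ryr3, a form that is expressed mainly in developing skeletal muscle, was low at 33.9, 51.9, 74.1 and 101, with both Prmt5sKO libraries above both controls and a log2 fold change of 1.02 (SE 0.51). Its 2 Prmt5sKO libraries differed only by 1.36-fold, and the log2 fold change without the shallower one was 0.82.

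Among the proteins that build the triad, triadin had the largest and Jph2 the smallest fold change. Trdn, which anchors calsequestrin at the release channel, had 50.9, 9.08, 28.9 and 652 normalized counts, a 22.6-fold gap between the Prmt5sKO libraries. The deeper Prmt5sKO library lay between the controls, and the log2 fold change of 2.31 (SE 2.26) became 0.32 without the shallower one. Asph, whose products include junctin, had 2316, 1716, 2554 and 2881 normalized counts and a log2 fold change of 0.44 (SE 0.23), or 0.36 without that library. Asph also encodes a hydroxylase found in many cells, and counts per gene do not separate its products. The junctophilins tie the T-tubule to the reticulum. Jph2 had 5419.8, 4045, 2815 and 8456 normalized counts, with the deeper Prmt5sKO library the lowest and the shallower the highest of the 4. Its log2 fold change was 0.07 (SE 0.51) with all libraries, -0.73 without the shallower Prmt5sKO library and -0.12 without the shallower control library. Jph1 had 165, 287, 195 and 701 and Jsrp1, a triad protein that binds the voltage sensor, 592, 446, 428 and 1394 normalized counts. For both, the log2 fold change changed sign without the shallower Prmt5sKO library, from 0.71 to -0.14 for Jph1 and from 0.54 to -0.28 for Jsrp1.

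The genes of the calcium store had the widest gaps between the 2 Prmt5sKO libraries by their median. Casq1 (ENSMUSG00000007122, chromosome 1, 172209894 to 172219868), the calsequestrin of fast fibres, had 54.2, 14.3, 40.8 and 1928 normalized counts, and Casq2 (ENSMUSG00000027861, chromosome 3, 102086415 to 102146514), the form of slow and heart muscle, had 214, 57.1, 245 and 6298. The shallower Prmt5sKO library was 47.3-fold above the deeper one for Casq1, which was the largest such ratio of the 35 genes, and 25.7-fold for Casq2. The deeper Prmt5sKO library of Casq1 lay between the controls. The log2 fold change was 3.0 (SE 3.07) for Casq1 and 3.41 (SE 2.2) for Casq2, and without the shallower Prmt5sKO library 0.48 and 1.09. Hrc, a calcium-binding protein of the store, had 81.4, 38.9, 162 and 1983 normalized counts and a log2 fold change of 3.19 (SE 1.91), or 1.48 without that library. Srl, the store glycoprotein sarcalumenin, had 597, 779, 1019 and 9458, with a log2 fold change of 2.2 (SE 1.01), or 0.59 without it. Both were above the controls in the 2 Prmt5sKO libraries.

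The 2 calcium pumps did not share one pattern. Atp2a1 (ENSMUSG00000030730, chromosome 7, 126445858 to 126463108), the SERCA1 pump of fast fibres, had 288, 374, 797 and 7702 normalized counts, with both Prmt5sKO libraries above both controls. The log2 fold change was 2.93 (SE 1.16), with a 95% interval from 0.11 to 5.75 (unadjusted p = 0.0441, adjusted p = 0.371, limma-voom), and 1.29 without the shallower Prmt5sKO library. Atp2a2, the SERCA2 pump of slow muscle and most other cells, had 7668, 8367, 5409 and 9519 normalized counts. The controls of Atp2a2 lay between the 2 Prmt5sKO libraries, and its log2 fold change was -0.15 (SE 0.31) with all libraries, -0.57 without the shallower and 0.25 without the deeper one. Sln, the peptide sarcolipin that inhibits the pump, had 0 counts in both control libraries and 7 and 33 counts in the Prmt5sKO libraries. Against a floor of 3 counts over the 2 controls, Sln was at least 9.42-fold higher in Prmt5sKO, a bound for counting error only.

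**Figure D2:**
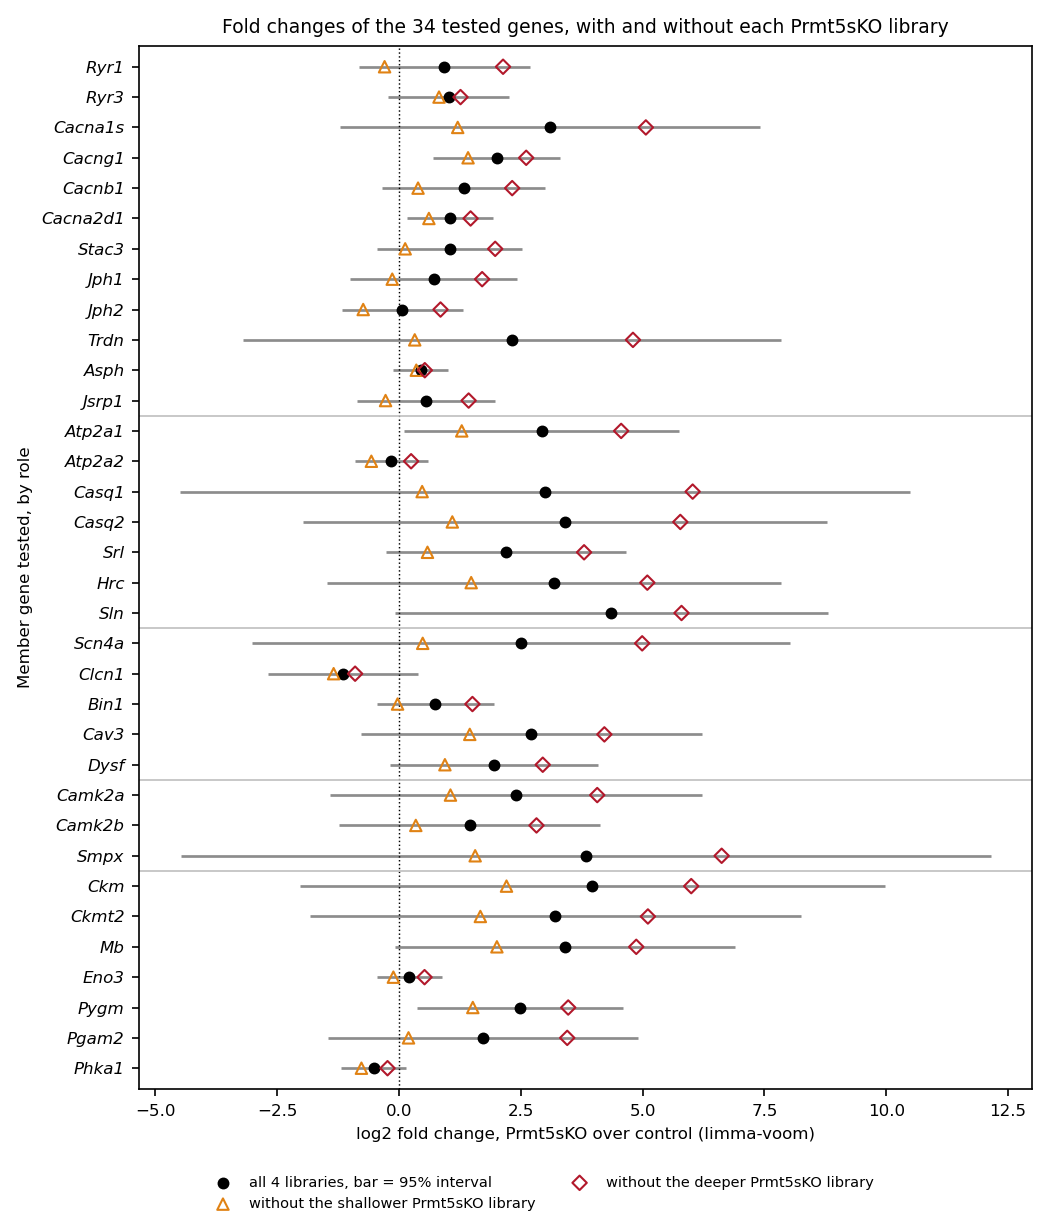
Log2 fold change of Prmt5sKO over control (horizontal axis) for the 34 genes tested, with filled circles for all 4 libraries and bars for their 95% interval in limma-voom, open triangles for the value without the shallower and open diamonds for the value without the deeper Prmt5sKO library. The bars of Cacng1, Cacna2d1, Atp2a1 and Pygm lie above 0, and the triangles lie to the left of the circles in all 33 rows that have one.

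Genes of membrane excitability did not share one direction. Scn4a, the sodium channel of skeletal muscle that carries the action potential, had 38.4, 20.8, 40.8 and 932 normalized counts, with the deeper Prmt5sKO library just above the controls and the shallower one 22.9-fold above it. Its log2 fold change was 2.5 (SE 2.26), or 0.49 without the shallower Prmt5sKO library. Clcn1 (ENSMUSG00000029862, chromosome 6, 42286685 to 42315756), the chloride channel that steadies the resting fibre, had 39.6, 32.4, 14.1 and 19.1 normalized counts and was below both controls in both Prmt5sKO libraries. The log2 fold change of Clcn1 was -1.14 (SE 0.63) with a 95% interval from -2.69 to 0.40, which includes 0, and -1.34 without the shallower Prmt5sKO library. The gene had at most 35 counts in a library. Among proteins that shape the membrane, Cav3, the caveolin of muscle, had 53.1, 32.4, 116 and 791 normalized counts. Its groups did not overlap, and its log2 fold change was 2.71 (SE 1.43), or 1.45 without the shallower Prmt5sKO library. Bin1, which helps to form T-tubules, had 4822, 6233, 5375 and 15591, and Dysf, the membrane repair protein dysferlin, had 942, 220.5, 907 and 3643. The deeper Prmt5sKO library lay between the controls for both. Dysf had a log2 fold change of 1.95 (SE 0.88) and Bin1 one of 0.75 (SE 0.49). Without the shallower Prmt5sKO library they were 0.94 and -0.03.

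Each of the 3 genes of calcium signalling and load-bearing was higher in both Prmt5sKO libraries, less so in the deeper one. The share of all genes tested that was higher in both was 25.2%. Camk2a and Camk2b encode forms of the calcium/calmodulin-dependent kinase CaMKII. Camk2a had 35, 11.7, 44.5 and 361 normalized counts and Camk2b 26, 24.6, 32.6 and 183, with log2 fold changes of 2.4 (SE 1.56) and 1.45 (SE 1.1), or 1.06 and 0.35 without the shallower Prmt5sKO library. Smpx (ENSMUSG00000041476, chromosome X, 157698910 to 157752591), a small protein of costameres, the sites that pass force to the membrane, had 21.5, 6.48, 37.8 and 1270.2 normalized counts. The shallower Prmt5sKO library of Smpx was 33.6-fold above the deeper one, and the log2 fold change of 3.84 (SE 3.41) had a 95% interval from -4.48 to 12.16. Without the shallower Prmt5sKO library it was 1.56.

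Among the energy genes, 5 of 7 were higher in both Prmt5sKO libraries, where 25.2% of all genes tested were. The deeper Prmt5sKO library was also further from the controls than in other roles. Without the shallower library the median log2 fold change was 1.52 here and 0.34 to 1.06 in the other roles. Ckm (ENSMUSG00000030399, chromosome 7, 19404776 to 19422841), the creatine kinase of muscle cytosol, had 39.6, 14.3, 116 and 1604 normalized counts. The deeper Prmt5sKO library was 4.3-fold and the shallower 59.6-fold above the mean of the controls, and the log2 fold change was 3.97 (SE 2.46), or 2.21 without the shallower one. Mb (ENSMUSG00000018893, chromosome 15, 77015487 to 77050670), the oxygen store myoglobin, had 154, 58.4, 393 and 2859 normalized counts and a log2 fold change of 3.41 (SE 1.43), with a 95% interval from -0.07 to 6.90, or 2.01 without that library. Pygm (ENSMUSG00000032648, chromosome 19, 6384399 to 6398459), the muscle glycogen phosphorylase, had 401, 131, 677 and 2629 normalized counts. The groups did not overlap for these 3 genes, and Pygm had a log2 fold change of 2.49 (SE 0.87), with an unadjusted p of 0.028 and an adjusted p of 0.334 in limma-voom, or 1.52 without the shallower Prmt5sKO library. Ckmt2, the creatine kinase of muscle mitochondria, had 10.2, 5.19, 25.2 and 277 normalized counts and a log2 fold change of 3.2 (SE 2.06), or 1.67 without that library. Pgam2, the muscle phosphoglycerate mutase, had 139, 157, 169 and 1618. It differed between the groups mainly through 1 library, since its log2 fold change of 1.73 (SE 1.3) was 0.20 without the shallower Prmt5sKO library.

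The other 2 energy genes did not share this pattern. Eno3, the muscle enolase, was already high in the controls, at 10552, 9542, 9267 and 14434 normalized counts. Its log2 fold change was 0.21 (SE 0.27), and -0.11 without the shallower Prmt5sKO library. Phka1 (ENSMUSG00000034055, chromosome X, 102513975 to 102644246), the muscle alpha subunit of phosphorylase kinase, had 628, 712, 391 and 567 normalized counts and was lower in both Prmt5sKO libraries. The log2 fold change of Phka1 was -0.52 (SE 0.27), with a 95% interval from -1.18 to 0.14, which includes 0, and -0.77 without the shallower Prmt5sKO library.

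Levels of different genes were compared as counts per kilobase of exon, scaled by the normalized depth of the library (normalized CPM per kilobase). Eno3 was the most abundant of the 35 in each library, at 376, 340.1, 330.3 and 514 on this scale. In the controls Jph2, Atp2a2 and Bin1 followed at 58.9 to 93.8, and their order differed between the 2 control libraries, so these neighbours did not differ beyond the spread. In the shallower Prmt5sKO library Bin1 came second at 235, followed by Casq2 at 143, Atp2a1 at 137, Jph2 at 123, Pgam2 and Mb both at 119 and Srl at 110. Casq2 had a level of 4.84 and 1.29 in the controls, and Atp2a1 of 5.14 and 6.66. The median level of the 35 genes was 4.84 and 2.42 in the controls, and 5.56 and 34.6 in the Prmt5sKO libraries. A level of at least 10 was reached by 8 and 7 genes in the controls, and by 12 and 25 in the Prmt5sKO libraries. As a share of counts, the 35 genes took 0.249% and 0.220% of the control libraries, and 0.248% and 0.748% of the Prmt5sKO libraries. The exact 95% binomial intervals were 0.247% to 0.252%, 0.218% to 0.223%, 0.246% to 0.25% and 0.744% to 0.752%, for counting error only.

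The 2 Prmt5sKO libraries were then set against the mean of the controls gene by gene. For 34 of the 34 tested genes the shallower library was above the deeper one, with a median ratio of 5.5, where 7939 of all 16212 genes were and the median ratio was 0.99. The ratio was at least 4 for 19 of the 34, against 5.36% of all genes. In the controls the shallower library was below the deeper one for 25 of the 34, with a median ratio of 0.74, beside 0.98 over all genes, where 8322 of all 16212 genes were below. By at least 4-fold either way, 2 of the 34 differed between the controls (Trdn and Dysf), and 1402 of all genes tested. In each group the library with the higher values for most of these genes was thus the one high in Xist. The summed differentiation markers were highest in the same Prmt5sKO and the same control library. The part in these ratios of depth, of differentiation and of whatever the Xist level reflects was not tested. By role, the median ratio of the shallower to the deeper Prmt5sKO library was 9.66 for the 7 tested genes of calcium store and uptake, 8.12 for the 3 of signalling and load-bearing, 7.27 for the 7 energy genes, 4.02 for the 5 of membrane excitability and 3.43 for the 12 of release channel, voltage sensor and triad.

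**Figure D3:**
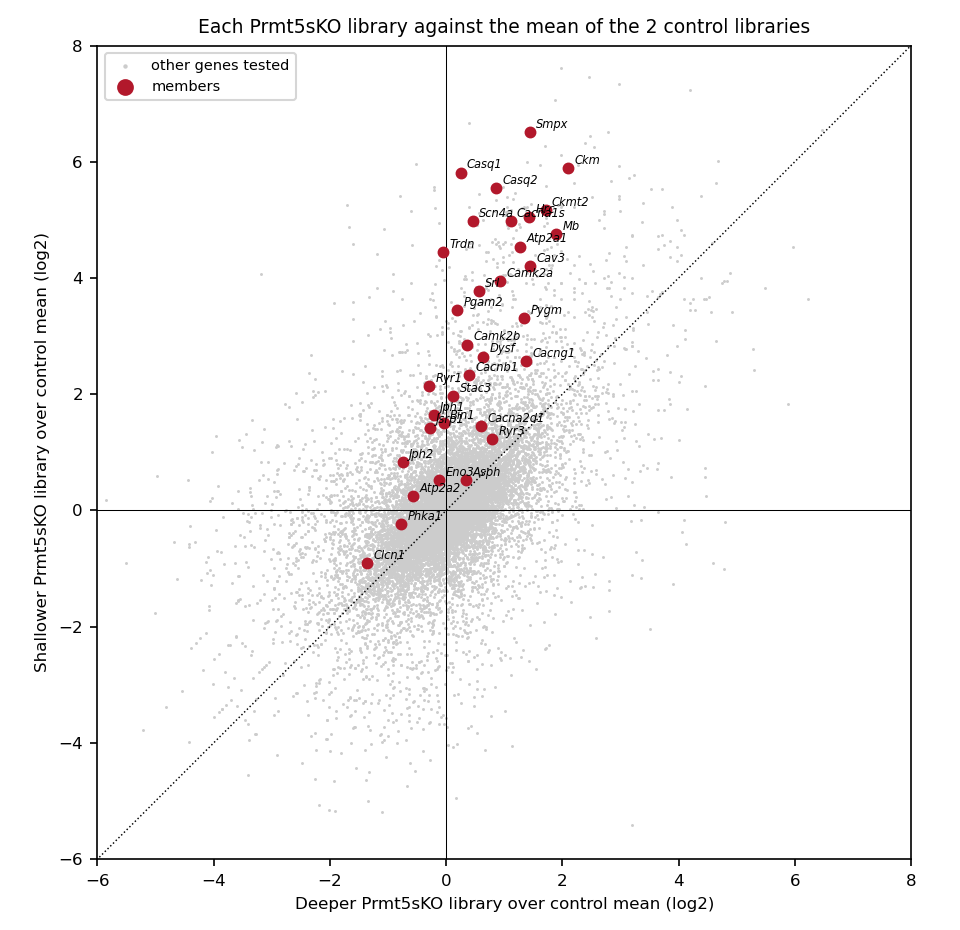
Log2 ratio of the deeper (horizontal axis) and of the shallower Prmt5sKO library (vertical axis) to the mean of the 2 control libraries, with grey points for the other genes tested and red points for those of the 34 genes that are above 0 in the control mean. The red points lie above the dotted line of equal ratios, by most for Casq1 and Smpx, and Clcn1 and Phka1 are the red points below 0 on both axes.

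Muscle uses its own forms of several proteins, and 16 pairs of related genes were compared by the share of the first form in the counts of both, per exon length. In 9 of the 16 pairs both Prmt5sKO libraries had a higher share of the first form than both controls, in 1 pair it was lower, and in 14 it was highest in the shallower Prmt5sKO library. These counts have no share over other gene pairs beside them, and the first forms are genes already described above, with Camk2b in 2 pairs. For Camk2a, Camk2b, Ckm, Cacna1s and Cacnb1, among the 9, the exact 95% intervals of the deeper Prmt5sKO library and the nearest control overlapped. For the calcium pump, SERCA1 (Atp2a1) made up 6.17% and 7.24% in control and 20.5% and 58.6% in Prmt5sKO, with exact 95% intervals of 5.46% to 6.93% and 6.47% to 8.08% in control and 19.5% to 21.6% and 57.9% to 59.3% in Prmt5sKO. The intervals cover counting error only, and 2 libraries against 2 cannot give an exact permutation p under 0.05. The caveolin of muscle, Cav3, made up 12.5% and 7.39% in control and 21.3% and 54.6% in Prmt5sKO, beside Cav1, the form of most other cells. Pygm made up 38.4% and 14.4% in control and 49% and 85.7% in Prmt5sKO, beside the brain form Pygb. For these the groups did not overlap, although the controls of Pygm also differed widely.

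In other pairs the shallower Prmt5sKO library stood apart and the deeper one was within or close to the controls. Pgam2 made up 16.9% and 17.6% in control and 17.1% and 69.4% in Prmt5sKO, beside Pgam1. Trdn made up 3.64% and 0.903% in control and 1.91% and 28% in Prmt5sKO of Trdn and Asph. Ckm made up 12.6% and 3.5% in control and 15.5% and 51.3% in Prmt5sKO, beside Ckb, the brain form of creatine kinase. Ckb was itself higher in both Prmt5sKO libraries, at 272, 390.4, 628 and 1512 normalized counts, so that both forms were higher together. In mitochondria the pair was too low to rank in control, with 9 and 4 counts of Ckmt2 and 11 and 0 of Ckmt1, and Ckmt2 made up 38.6% and 92.4% in Prmt5sKO.

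The remaining pairs varied in the size of their shift. Ryr1 made up between 96.2% and 99% of Ryr1 and Ryr3 in the 4 libraries, and Cacna1s between 88.8% and 99.9% of Cacna1s and Cacna1c, the channel of heart and other cells. Casq1 made up 26.3% and 26% in control and 18.9% and 30.04% in Prmt5sKO, so that the calsequestrins of fast and slow muscle differed together. Jph1 made up 2.53% and 5.69% in control and 5.56% and 6.59% in Prmt5sKO, and Camk2a 62.2% and 36.7% in control and 62.5% and 70.7% in Prmt5sKO of Camk2a and Camk2b. Camk2b made up 3.96% and 4.16% in control and 5.83% and 16.2% in Prmt5sKO, beside the widespread Camk2d, and Cacnb1 25.9% and 46.5% in control and 49.7% and 68.5% in Prmt5sKO, beside Cacnb3. Eno3 made up 55% and 54.2% in control and 60.1% and 62.1% in Prmt5sKO, beside the widespread Eno1. With the longest transcript as the length, its shares were 33.8%, 33.2%, 38.7% and 40.8%. Which enolase was the larger form thus depended on the length used. Phka1 was the pair in which the muscle form had a smaller share in both Prmt5sKO libraries, at 56.6% and 49.9% in control and 42.6% and 38.3% in Prmt5sKO, beside the liver form Phka2. Reads of Eno1 and Pgam1 may be split with near-identical pseudogene copies, and how the counting treated such reads is not given in the sources used here.

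**Figure D4:**
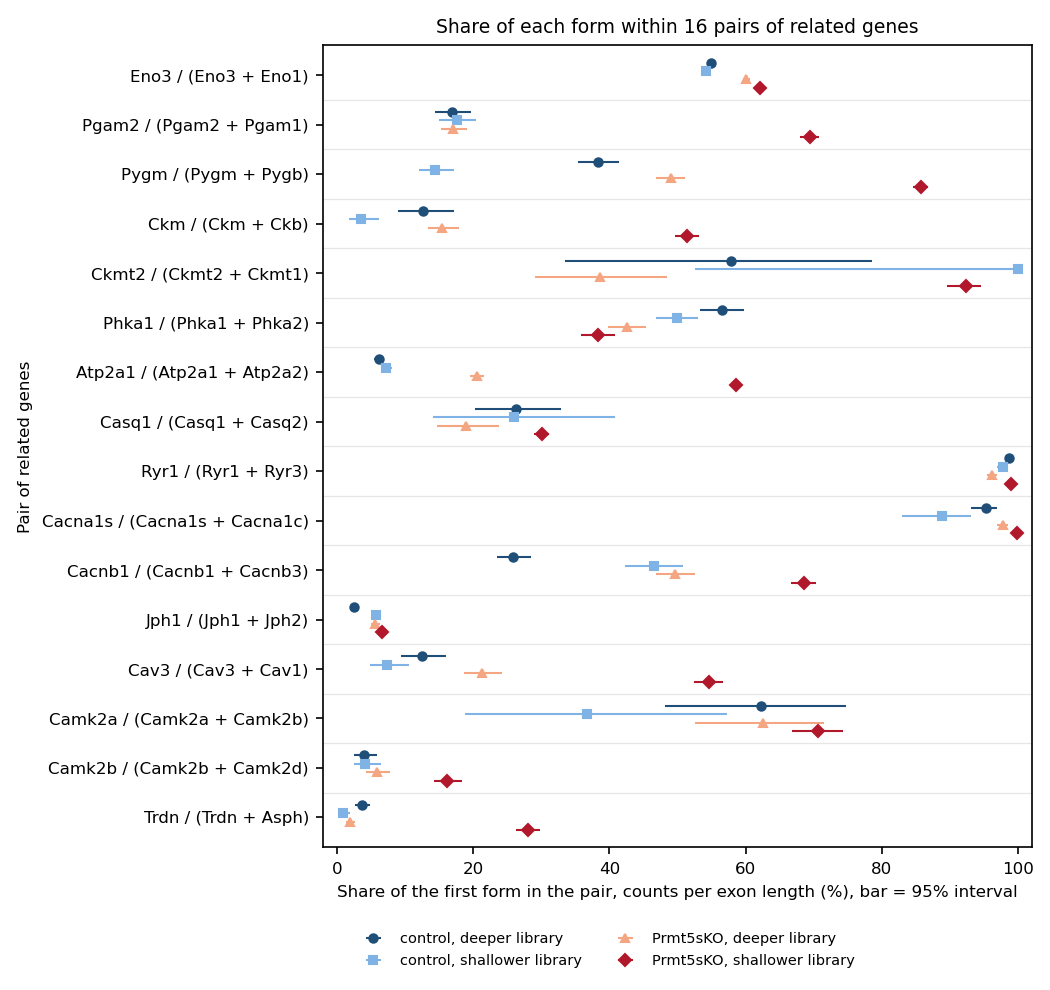
Share (horizontal axis, percent of counts per exon length) of the first gene within each of 16 pairs of related genes, with 1 point per library and bars for the exact 95% interval of counting error. The diamonds of the shallower Prmt5sKO library are rightmost in 14 pairs, and those of Atp2a1, Cav3, Pgam2, Ckm, Cacnb1 and Pygm have passed 50%, which the controls have not. The shares depend on the length used, and with the longest transcript Cav3 was at 48.9% in that library.

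Other genes of the same pathways had smaller median differences, and their counts are read beside those of all genes tested. Of all genes tested, 25.2% were higher and 23.6% lower in both Prmt5sKO libraries. At an unadjusted p under 0.05 in limma-voom, 6.01% were higher, and 1126 of the 16212 were lower. Of 50 further genes of excitation-contraction coupling, 48 were tested, 16 were higher and 7 lower in both Prmt5sKO libraries, and their median log2 fold change was 0.20. Of 47 further genes of muscle energy supply, 47 were tested, 18 were higher and 4 lower in both, with a median of 0.34. In limma-voom 0 of either list were called, and at an unadjusted p under 0.05 there were 4 higher and 1 lower gene in the first list and 8 higher and 1 lower in the second. Both lists hold forms of non-muscle cells beside muscle genes. The genes named from each list were chosen for groups that do not overlap and for the size of their difference, so neither is a result. In the first list, Cacna2d2, a calcium channel subunit, had 1.13, 3.89, 54.8 and 11.1 normalized counts, and it was higher in the deeper than in the shallower Prmt5sKO library. Kcnj2, an inward rectifier channel that sets the resting potential, had 5.65, 0, 8.15 and 59.3 and Abcc9, the regulatory subunit of the ATP-sensitive potassium channel, 39.6, 7.78, 57.1 and 692. Tmem38a, the potassium channel TRIC-A of the store, had 198, 187, 376 and 2813, and Mrln, the pump inhibitor myoregulin, had 9.04, 5.19, 23.7 and 53.3. Cacng6, another gamma subunit of calcium channels, had 28.3, 28.5, 44.5 and 398 normalized counts. Apart from Cacna2d2 the shallower Prmt5sKO library was highest in these 6 genes. Cacna2d2 and Kcnj2 passed the filter on low counts only through their Prmt5sKO libraries.

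In the second list the 6 genes with the largest differences among those whose groups did not overlap were low in control. Ckmt1 had 12.4, 0, 67.4 and 38.2 normalized counts and a log2 fold change of 4.09 (SE 1.45), and was higher in the deeper than in the shallower Prmt5sKO library. Ppp1r3a and Ppp1r3c, which bring a phosphatase to glycogen, had 2.26, 0, 5.93 and 90.5 and 0, 1.3, 4.45 and 59.3. Cox6a2, the muscle form of a cytochrome c oxidase subunit, had 0, 5.19, 8.89 and 87.5 normalized counts. Ampd1, the AMP deaminase of muscle, had 1.13, 10.4, 12.6 and 125, and Pygl, the liver glycogen phosphorylase, 9.04, 1.3, 26.7 and 33.2. In each of these 6 at least 1 control library was below 2 normalized counts, so their fold changes rest on few reads, and Ppp1r3a, Ppp1r3c and Cox6a2 passed the filter on low counts only through Prmt5sKO.

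Of the 35 genes, 11 share exon bases with a gene annotated on the opposite strand. The shared part was 21.9% of the exon length for Atp2a1 (with Rabep2), 15.5% for Ckm (with A930016O22Rik) and 14.3% for Asph (with Clvs1), and between 1.77% and 8.2% for Bin1, Cacnb1, Casq1, Clcn1, Dysf, Mb, Ryr1 and Ryr3. Whether the counting used the strand is not given in the sources used here, and without it reads of such parts cannot be told apart.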

How the data were processed

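RNA of cultured MuSC (4 libraries) was depleted of ribosomal RNA and sequenced on the Ion Torrent Proton platform. The authors trimmed reads with Reaper, aligned them to GRCm38 with STAR 2.4.0a and compared the groups with DESeq2 1.62 (versions per the submitters' processing notes). How reads were counted per gene is not given in the sources used here. For each group the authors deposited 1 signal value per gene, its read counts divided by size factors and averaged over the 2 libraries. The deposited table also holds the authors' combined mean, log2 fold changes, standard errors and p-values, which were not used. Since a read adds a fixed step that differs between the 2 libraries, the steps in each group mean gave back the whole counts of both libraries for 100% of the 20065 genes. Recovery and test were each run on simulated data. The spread in the simulation of the test was set by hand and not taken from these libraries. It therefore does not show how the test performs at the spread seen here.

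Counts were scaled by TMM from own code (trims of 30% and 5%). The 16212 genes whose normalized counts averaged 5 or more were compared with limma-voom (limma 3.58.1, R 4.3.3) and Benjamini-Hochberg adjustment over them, and called from a 2-fold change upward with an adjusted p up to 0.05. Gene symbols, coordinates and exon lengths came from GENCODE M21, which held 19782 of the identifiers. Python 3.11.15, pandas 2.3.3 and matplotlib 3.10.9 served for the summaries and figures. The genes and lists were chosen with earlier results of these data known. Named were all 35 genes, their partners in the 16 pairs and, from each of 2 further lists, the 6 tested genes with the largest fold changes among those whose groups did not overlap. After the values were seen, 1 pair and 2 genes of a further list were taken out and are not reported here. Xist, outside this rule, was chosen with its values known from those earlier results. Counts give exact binomial intervals, which cover counting error only.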

Additional observations from a re-analysis of the deposited data

How the results depend on the processing

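Another scaling (the authors' size factors, library size or upper quartile), no filter, a minimum mean of 20 and limma-trend on log2(CPM + 1) left the counts of calls at 0 and kept the sign of the log2 fold change of each gene tested under them. The columns carry no replicate numbers, and both possible pairings were run. Across 11571 genes the log2 ratios within control and within Prmt5sKO correlated at -0.21 for deeper libraries paired and at 0.21 for deeper and shallower paired, and genes are not independent replicates. The replicate block with the deeper libraries paired called 0 genes, and with deeper and shallower paired it called 346 genes, 14 of them among the 34, and Prmt5 passed at -3.54 (adjusted p = 0.011, limma-voom, with a range from 0.00321 to 0.968 over all alternatives). The cause of this difference was not tested.

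With each library left out in turn, 0 to 489 genes and 0 to 24 of the members tested were called (489 and 24 without the deeper Prmt5sKO library, 55 and 0 without the shallower one, 0 without either control), their median lay between 0.49 and 3.20, between 20 and 32 genes were higher in the Prmt5sKO than in the control libraries left, 24 to 32 had a log2 fold change above 0, and that of Prmt5 lay between -3.71 and -3.33. A library alone in its group was assumed to vary like the others. The sign reversed for 7 genes when 1 library was left out. The values ran from -0.30 (shallower Prmt5sKO library left out) to 2.14 (deeper one left out) for Ryr1, from -0.14 to 1.71 for Jph1, from -0.73 to 0.85 for Jph2, from -0.28 to 1.43 for Jsrp1, from -0.029 to 1.51 for Bin1, from -0.11 to 0.52 for Eno3 and from -0.57 to 0.25 for Atp2a2, and Jph2 was also at -0.12 without the shallower control. Shares within pairs gave 9 of 16 pairs higher in both Prmt5sKO libraries with the exon length, the longest transcript or no length, but the shares themselves changed with the length. Depth limits Sln, Pvalb, Scn4a, Clcn1, Camk2a, Camk2b, Smpx, Ckm and Ckmt2, which had at most 35 counts in each control library.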
